A study of Rattus norvegicus with 32 samples.

Results

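Messenger RNA of 6 mitochondrially encoded genes was followed in hippocampus of adult Sprague-Dawley rats: the cytochrome c oxidase subunit genes Mt-co1, Mt-co2 and Mt-co3, the ATP synthase subunit genes Mt-atp6 and Mt-atp8, and the cytochrome b gene Mt-cyb. They were chosen by their symbols (Mt-co1 ENSRNOG00000034234, Mt-co2 ENSRNOG00000030371, Mt-co3 ENSRNOG00000030700, Mt-atp6 ENSRNOG00000031979, Mt-atp8 ENSRNOG00000033299, Mt-cyb ENSRNOG00000031766), 6 rows among 32883 in each of the male and female count tables, with earlier results of these counts in view, so their differences between groups are given as a description. No p-value is printed for them, and calls under a p limit are part of that description. RNA came from 32 rats at 65 days of age, 4 of each sex in each of 4 diet groups. Iron-sufficient rats (IS) were born to dams on an iron-sufficient diet and served as the control. Offspring of dams given choline in addition during gestation formed the ISch group. Formerly iron-deficient rats, which the sample labels call ID and the study FID, were born to dams on an iron-deficient diet from early gestation through the first postnatal week and had recovered their iron by the time of sampling, and the FIDch group had prenatal choline as well. The diets were given to the dams, and the study's methods state a single male per litter but do not describe the females. Sequencing batch I held every male library and batch II every female library. Sex therefore cannot be told apart from batch, and every comparison was made within a sex.

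The mitochondrial genome encodes 13 proteins, all of them subunits of the respiratory chain and the ATP synthase. Mt-co1, Mt-co2 and Mt-co3 form the catalytic core of complex IV, which passes electrons to oxygen and carries heme and copper centres. Cytochrome b, made from Mt-cyb, is the heme-bearing membrane subunit of complex III. Mt-atp6 and Mt-atp8 encode membrane subunits of complex V, the proton channel side of the ATP synthase. Mitochondrial DNA is transcribed into long precursors that are cut into single messages at the tRNAs between the genes, so levels of the separate messages can part from each other after transcription. Mt-atp8 and Mt-atp6 are an exception, since their reading frames overlap and they are carried on a shared message. Iron is needed for heme and for iron-sulfur clusters of these complexes, and the hippocampus of young animals is known for its high demand for oxidative energy.

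Total counts on genes were 3515806 to 9517503 per male library and 18439999 to 26616318 per female library, and the shallowest was male FIDch replicate 2. The 6 genes together took 4.24% to 5.38% of all counts in male and 4.94% to 6.29% in female libraries, so sampling noise of their counts was small. Normalised counts are given as CPM (counts scaled to a common library size) after TMM scaling, which corrects for differences in composition between libraries. Reads that could come from both Mt-atp8 and Mt-atp6, or from a nuclear copy of a mitochondrial gene, are uncertain, since the treatment of overlapping and multiply aligned reads and of strand is not given in the sources used here. Fewer mitochondria or cells of a type and less RNA per cell cannot be told apart in bulk tissue. Markers of hippocampal cells were present in every group, with summed levels of 5 excitatory neuron markers between 5089 and 6377 CPM over all 32 libraries. The names of 3 male libraries, ISch replicates 1 and 2 and FIDch replicate 2, differ in form from the rest, and the main results of the 6 genes that rest on them are given with and without them. Male FID replicate 4 held 391.0 CPM of 5 choroid plexus markers against 2.52 to 17.5 CPM in the other 15 male libraries, and all 4 FID libraries, at 6.12 CPM or more, were above the other male groups, which reached 6.05 CPM.

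Differences between diet groups were seen mainly in males with prenatal choline and ran in opposite directions for different genes. Mt-atp8 was higher in both choline groups, whereas Mt-co3 and Mt-atp6 were lower in ISch. In females the groups overlapped for all 6 genes in each of the 4 comparisons. The plot of normalised counts by library shows these values for both sexes.

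**Figure D1:**
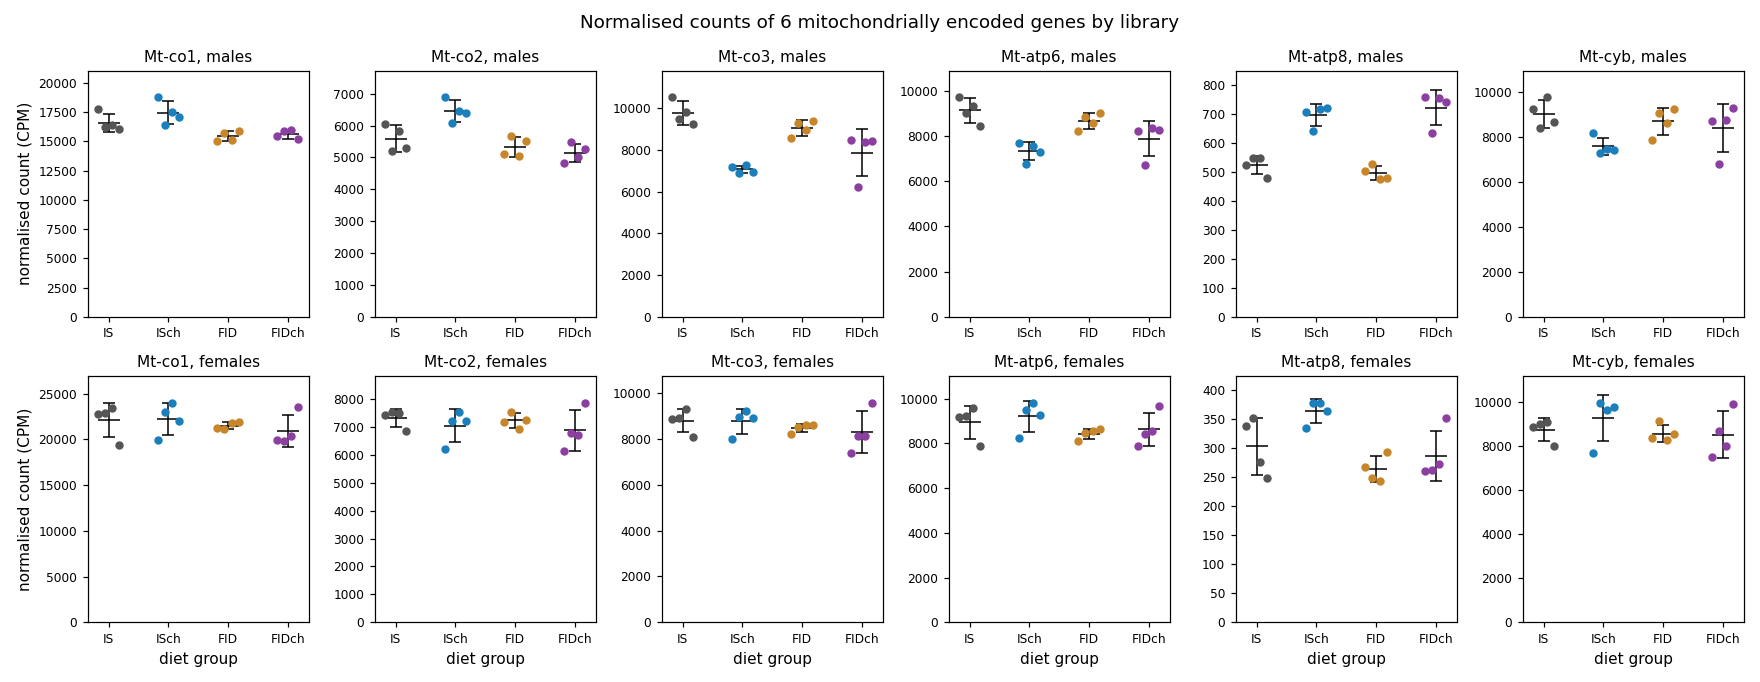
Normalised counts (CPM, linear axes from 0) of each of the 6 genes in the 4 diet groups, males above and females below. Points are single libraries in the order of their replicate numbers and bars are the mean ± SD (n = 4). All 8 male choline libraries lie above all 8 male libraries without choline for Mt-atp8, and 1 FIDch library lies apart from the other 3 for Mt-co3 and Mt-atp6.

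Cytochrome c oxidase genes were examined first. In male IS rats, replicates 1 to 4 had 10536, 9488, 9806 and 9268 CPM of Mt-co3, and in ISch they had 7194, 6902, 7262 and 6935 CPM. Each ISch value was below each IS value. Means were 7073 ± 181 CPM in ISch and 9775 ± 554 CPM in IS (SD, n = 4), a log2 fold change of -0.47 (standard error 0.045). In FID, Mt-co3 was 8572, 9311, 8953 and 9369 CPM, with replicates 2 and 4 at the lower end of the IS range and the other replicates below it. In FIDch it was 8495, 6213, 8366 and 8440 CPM, where replicate 2 was below every ISch library and the other 3 were just below the FID range. The log2 fold change of Mt-co3 was -0.31 (standard error 0.088) for FIDch against IS and -0.21 (standard error 0.084) for FIDch against FID. Without FIDch replicate 2, the 3 remaining libraries averaged 8434 ± 64.5 CPM (SD, n = 3), and these fold changes were -0.21 and -0.11.

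Mt-co2 moved the other way in ISch. The 4 IS libraries had 6047, 5193, 5836 and 5294 CPM and the ISch libraries 6893, 6084, 6460 and 6402 CPM. The groups did not overlap but were close, with 6047 CPM as the highest IS and 6084 CPM as the lowest ISch value. The log2 fold change was 0.20 (standard error 0.056). FID had 5106, 5677, 5044 and 5524 CPM of Mt-co2 and FIDch 4820, 5482, 5008 and 5252 CPM, and both overlapped IS.

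For Mt-co1, whose product holds the oxygen-binding centre, IS libraries had 17738, 16212, 16362 and 16091 CPM and ISch libraries 18780, 16432, 17482 and 17113 CPM. These ranges overlapped and the log2 fold change was 0.07 (standard error 0.047). All 4 FID values, 15005, 15711, 15118 and 15871 CPM, and all 4 FIDch values, 15443, 15858, 15960 and 15163 CPM, were below all IS values. The differences were small, with log2 fold changes of -0.11 (standard error 0.048) for FID and -0.09 (standard error 0.05) for FIDch against IS. Thus, the 3 subunit genes of one enzyme core had different patterns across the same 16 male libraries.

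The ATP synthase genes differed from each other as well. Mt-atp8 was 524, 548, 546 and 480 CPM in the 4 male IS libraries and 706, 641, 716 and 720.1 CPM in ISch. It was 504, 527, 477 and 479 CPM in FID and 758, 634, 755 and 741 CPM in FIDch. No library without choline reached the lowest choline library, which was FIDch replicate 2. Group means were 525 ± 31.6 CPM for IS against 696 ± 37.2 CPM for ISch, and 497 ± 23.8 CPM for FID against 722 ± 59.2 CPM for FIDch (SD, n = 4). The log2 fold change of Mt-atp8 was 0.40 (standard error 0.058) for ISch against IS and 0.54 (standard error 0.063) for FIDch against FID.

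In ISch, counts of Mt-atp6 were lower whereas those of Mt-atp8 were higher. These genes are carried on a shared message, and how reads from their overlap were counted is not known. Separate changes of messages can therefore not be read from these counts, and the part of read assignment was not tested. IS libraries had 9709, 9023, 9302 and 8438 CPM of Mt-atp6, and ISch libraries had 7681, 6766, 7559 and 7303 CPM, without overlap. FID had 8216, 8847, 8577 and 9018 CPM. FIDch replicates 1, 3 and 4 had 8199, 8346 and 8262 CPM and replicate 2 had 6699 CPM, which was just below the ISch range. The log2 fold change was -0.32 (standard error 0.052) for ISch and -0.21 (standard error 0.071) for FIDch against IS, and -0.14 (standard error 0.056) for FIDch against IS without FIDch replicate 2.

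Mt-cyb, the complex III member, was 9248, 8410.2, 9779 and 8669 CPM in male IS and 8162, 7294, 7464 and 7433 CPM in ISch. The groups did not overlap, and the log2 fold change was -0.26 (standard error 0.054). FID libraries ranged from 7887 to 9240 CPM and overlapped IS. In FIDch, Mt-cyb was 8735, 6819, 8783 and 9286 CPM, and without replicate 2 the log2 fold change against IS was -0.01 (standard error 0.061).

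Read against all genes tested, 5 of the 6 genes met the study's criterion in male ISch against IS, an absolute log2 fold change over 0.2 with an unadjusted p under 0.05 in edgeR's quasi-likelihood test, where 8.06% of 13956 genes met it. Of the 5, 2 were higher and 3 lower. Mt-co3, Mt-atp6 and Mt-atp8 had an adjusted p under 0.05, which 0.208% of all genes had. The median log2 fold change of the 6 was -0.10, beside -0.0007 over all genes, so the median does not show the opposite directions. The contrast of ISch with IS may be among those that the genes were chosen on, and nothing is read from these counts. Across the 8 fits that left out 1 library, Mt-co3, Mt-atp6, Mt-atp8 and Mt-cyb stayed at the criterion in all 8 and Mt-co2 in 5, losing it without IS replicate 2, IS replicate 4 or ISch replicate 1. An adjusted p under 0.05 was kept in all 8 by Mt-co3, in 6 by Mt-atp8, which lost it without ISch replicate 3 or 4, and in 4 by Mt-atp6, which lost it without IS replicate 2 or ISch replicate 2, 3 or 4. Without ISch replicates 1 and 2, the log2 fold changes were -0.48 for Mt-co3, -0.31 for Mt-atp6, -0.29 for Mt-cyb, 0.44 for Mt-atp8 and 0.19 for Mt-co2. In that fit the adjusted p was under 0.05 for Mt-co3 but no longer for Mt-atp6 or Mt-atp8, and Mt-co2 did not meet the criterion.

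In male FID against IS, 0 of the 6 met the criterion by edgeR's quasi-likelihood test, beside 4.62% of 13851 genes. At an unadjusted p under 0.05 there were 2, Mt-co1 and Mt-co3, and DESeq2 also gave 0 at the criterion. The adjusted p was under 0.05 for 0 of the 6 and for 0% of all genes. Log2 fold changes were all below 0, from -0.12 to -0.06, with a median of -0.08.

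In male FIDch against IS, Mt-atp8 was higher and Mt-co3 and Mt-atp6 lower at the criterion, 3 of 6 genes beside 6.12% of 13693. Mt-atp8 had an adjusted p under 0.05, beside 0.131% of all genes, and lost it without IS replicate 2 or 4 or FIDch replicate 1, 3 or 4. Mt-atp6 lost the criterion without FIDch replicate 2, IS replicate 1 or IS replicate 3. In male FIDch against FID, Mt-atp8 was higher and Mt-co3 lower at the criterion, 2 of 6 genes beside 13% of 13945, and Mt-atp8 had an adjusted p under 0.05, beside 1.28%, which held with any single library left out. Mt-co3 lost the criterion there without FIDch replicate 2, FID replicate 2 or FID replicate 4, and under RLE size factors, library size alone, DESeq2 and the fit of all 4 groups. The 3 comparisons with IS share their control libraries, and FIDch against FID uses libraries of those comparisons again.

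The difference between the choline effects in FID and in IS males was fitted in all 16 male libraries. Mt-co3 had a log2 difference of 0.28 (standard error 0.1) and Mt-co2 of -0.25 (standard error 0.082), both at the criterion, which 14.4% of 14314 genes met. For Mt-atp8 the log2 difference was 0.14 (standard error 0.087) and did not meet it. An adjusted p under 0.05 was found for 0.00699% of all genes and for 0 of the 6, also in DESeq2, with 3 of the 6 at an unadjusted p under 0.05. Without FIDch replicate 2 alone, the log2 difference of Mt-co3 was 0.37 (standard error 0.0625) and its adjusted p fell under 0.05, which no other of the 16 fits that left out a library gave. Without the 3 libraries of another name form, no adjusted p of the 6 was under 0.05, and Mt-co3 at 0.36, Mt-cyb at 0.32, Mt-atp6 at 0.23 and Mt-co2 at -0.29 met the criterion.

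**Figure D2:**
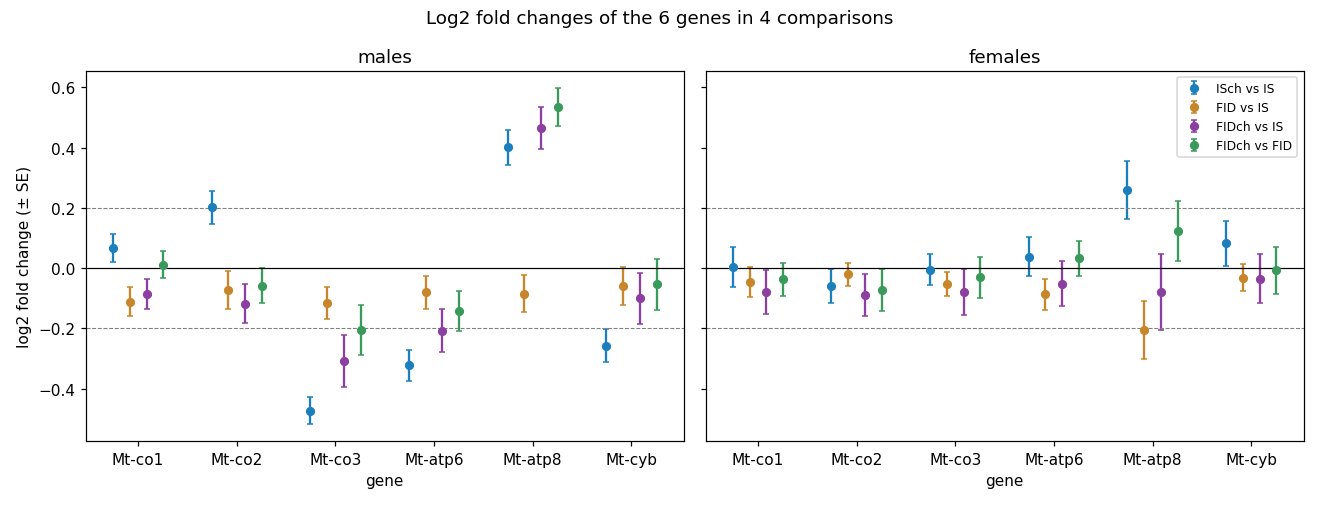
Log2 fold change ± standard error of each of the 6 genes in 4 comparisons, males left and females right, on a common linear axis, from edgeR's fits of 8 libraries each. Dashed lines mark the criterion's limits of -0.2 and 0.2. In males Mt-atp8 lies at 0.40, 0.47 and 0.54 in the 3 comparisons of a choline group, whereas Mt-co3 lies below 0 in all 4.

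Ratios of counts between 2 genes within a library do not depend on library scaling, and were used to see which genes parted from each other. The ratio of Mt-atp8 to Mt-atp6 counts was 0.0531 to 0.0614 in all 8 male IS and FID libraries and 0.0897 to 0.0986 in all 8 male ISch and FIDch libraries. Means of the ratio were 0.0576 ± 0.0028 for IS against 0.095 ± 0.0028 for ISch, and 0.0574 ± 0.0038 for FID against 0.0918 ± 0.0022 for FIDch (SD, n = 4). Male FIDch replicate 2, at 0.0946, was among the other choline libraries for this ratio. The part of reads shared by Mt-atp8 and Mt-atp6 in this ratio was not tested. In females the ratio was 0.0285 to 0.0407 over all 16 libraries, and the 4 ISch libraries, 0.0385 to 0.0407, were just above the 4 IS libraries, 0.0289 to 0.0383. Female FID had 0.0285 to 0.034 and FIDch 0.0312 to 0.0364, which overlapped.

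**Figure D3:**
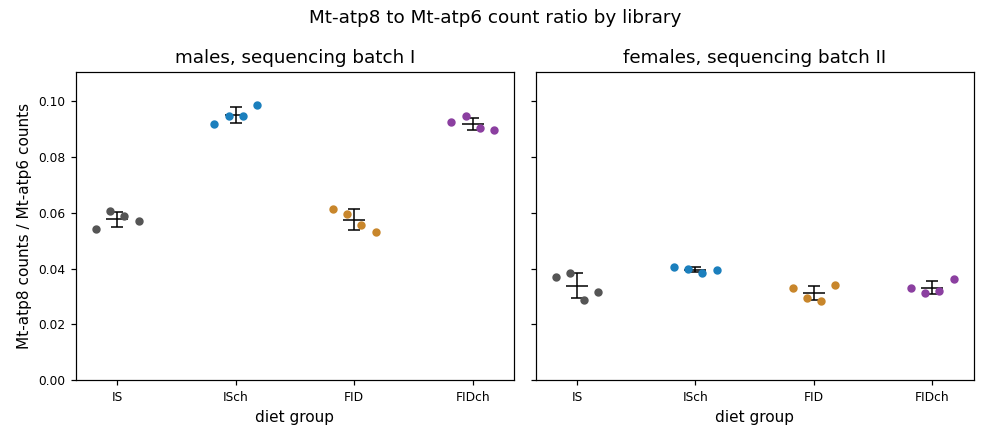
Counts of Mt-atp8 divided by counts of Mt-atp6 in each library (linear axis from 0, no unit), males of batch I left and females of batch II right. Points are libraries and bars the mean ± SD (n = 4). Male libraries fall in 2 separate ranges, 0.0531 to 0.0614 without and 0.0897 to 0.0986 with choline, and female libraries lie at or below 0.0407.

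Complex IV ratios divided the male libraries along another line. Mt-co1 to Mt-co3 was 1.67 to 1.75 in the 8 IS and FID libraries, 2.38 to 2.61 in the 4 ISch libraries and 1.80 to 1.91 in FIDch replicates 1, 3 and 4. FIDch replicate 2 had 2.55, inside the ISch range. For Mt-co2 to Mt-co3 the same libraries had 0.547 to 0.610, 0.881 to 0.958, 0.567 to 0.622 and 0.882. ISch replicates 3 and 4, whose names have the usual form, had 2.41 to 2.47 and 0.890 to 0.923 and thus lay with ISch replicates 1 and 2. Female libraries had 2.39 to 2.70 and 0.775 to 0.886 in all 4 groups, which overlaps the range of male ISch. Mt-atp6 to Mt-co3 varied less, from 0.910 to 1.08 over the male libraries and 0.969 to 1.07 over the female libraries. Within males it was 0.910 to 0.962 in the 8 IS and FID libraries and 0.965 to 1.08 in the 8 ISch and FIDch libraries. These sets were close but did not overlap. Mt-cyb to Mt-co3 was 0.878 to 0.997 and 1.028 to 1.135 in the same sets. In males both ratios were thus higher with choline, as Mt-atp8 to Mt-atp6 was. The part of the name form in these ratios was not tested.

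**Figure D4:**
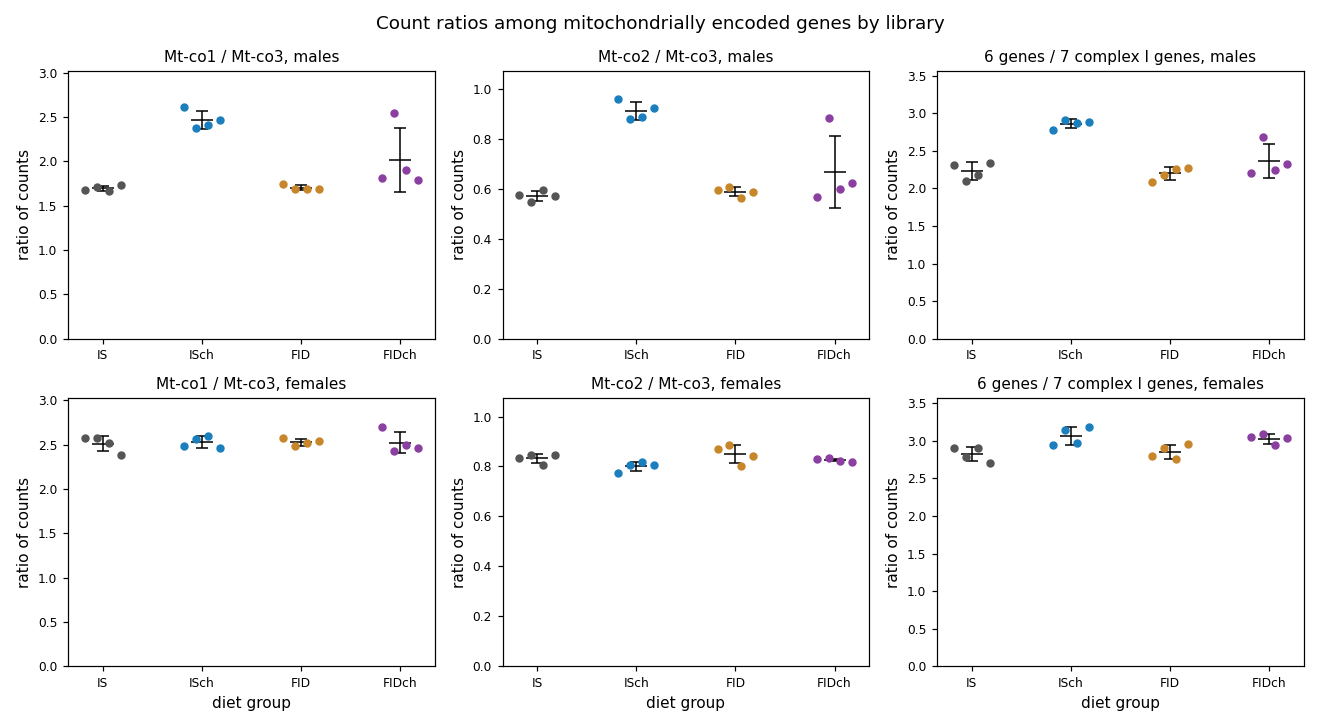
Ratios of counts within each library (linear axes from 0, no unit): Mt-co1 to Mt-co3, Mt-co2 to Mt-co3, and the sum of the 6 genes to the sum of the 7 mitochondrially encoded complex I genes, males above and females below. Points are libraries and bars the mean ± SD (n = 4). The male ISch libraries and 1 FIDch library, at 2.55, 0.882 and 2.69, stand above the other male libraries in all 3 panels.

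The same 5 male libraries stood apart in the ratio of the 6 genes to the other mitochondrially encoded protein genes. These are Mt-nd1, Mt-nd2, Mt-nd3, Mt-nd4, Mt-nd4l, Mt-nd5 and Mt-nd6, which encode membrane subunits of complex I, the entry point of NADH electrons. The sum of the 6 divided by the sum of the 7 was 2.78 to 2.92 in ISch and 2.69 in FIDch replicate 2, against 2.09 to 2.34 in the other 11 male libraries and 2.71 to 3.18 in females. Mt-nd2 was 5315 ± 336 CPM in ISch and 8484 ± 440.3 CPM in IS (SD, n = 4), a log2 fold change of -0.68 with a standard error of 0.053 (edgeR, adjusted p = 0.000149). Mt-nd1 was 4733 ± 264 CPM and 6944 ± 545 CPM in these groups, which gave a log2 fold change of -0.56 with a standard error of 0.059 (edgeR, adjusted p = 0.00177). With any single library removed, of the 8, or without ISch replicates 1 and 2 together, the adjusted p of both genes remained under 0.05. FIDch replicate 2 had 5155 CPM of Mt-nd2, and the other 3 FIDch libraries had 8005, 8075 and 7432 CPM. In all, 6 of the 7 complex I genes were lower at the criterion in ISch, with a median log2 fold change of -0.35, and 5 of 7 in FIDch against IS, with a median of -0.24, beside 8.06% and 6.12% of all genes at the criterion in either direction. In ISch, Mt-nd3, Mt-nd4, Mt-nd5 and Mt-nd6 overlapped IS, with adjusted p-values of 0.192 to 0.384 in edgeR's test. In FIDch against IS, adjusted p-values of the 5 were 0.187 to 0.627 in that test, and Mt-nd2, Mt-nd4 and Mt-nd5 overlapped. Of the complex I genes, Mt-nd5 lost the criterion in ISch without IS replicate 2 or 3, and Mt-nd6 without IS replicate 1, 2 or 3 or ISch replicate 2, 3 or 4. In FIDch against IS, Mt-nd2 lost it without IS replicate 1, 2 or 3 or FIDch replicate 2 or 4, and Mt-nd5 without IS replicate 2 or 3 or FIDch replicate 2.

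Complex I genes did not all follow Mt-nd1 and Mt-nd2. In FIDch against FID, Mt-nd3, Mt-nd5 and Mt-nd6 were lower at the criterion without overlap, at log2 fold changes of -0.34 (standard error 0.074), -0.25 (standard error 0.056) and -0.29 (standard error 0.071). Their adjusted p-values in edgeR's test were 0.047, 0.0515 and 0.0704, and with 1 library left out that of Mt-nd3 stayed under 0.05 only without FID replicate 3. Mt-nd4l, whose reading frame overlaps that of Mt-nd4, had a log2 fold change of -0.01 in male ISch and 0.03 in male FIDch against IS. In male FID against IS, Mt-nd4 alone met the criterion, with 320.0 ± 13.8 CPM in FID and 395 ± 56.7 CPM in IS (SD, n = 4). These groups overlapped, and its adjusted p was 0.786 in edgeR's test. In females, Mt-nd4l was lower in FIDch, 417 ± 43.6 CPM against 538 ± 22.3 CPM in FID (log2 fold change -0.36, adjusted p = 0.0289 from edgeR's test), and against IS at -0.32. That adjusted p stayed under 0.05 with 1 library left out only without FIDch replicate 3 or 4. Female FIDch also had less Mt-nd5 than IS at -0.26, and female FID had more Mt-nd4 than IS at 0.63 (standard error 0.19), from 65.3 ± 10.9 CPM and 42.2 ± 13.2 CPM. The groups overlapped in both, with adjusted p-values of 0.216 and 0.223 in edgeR's test. That of female Mt-nd4l in FIDch against IS was 0.195.

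**Figure D5:**
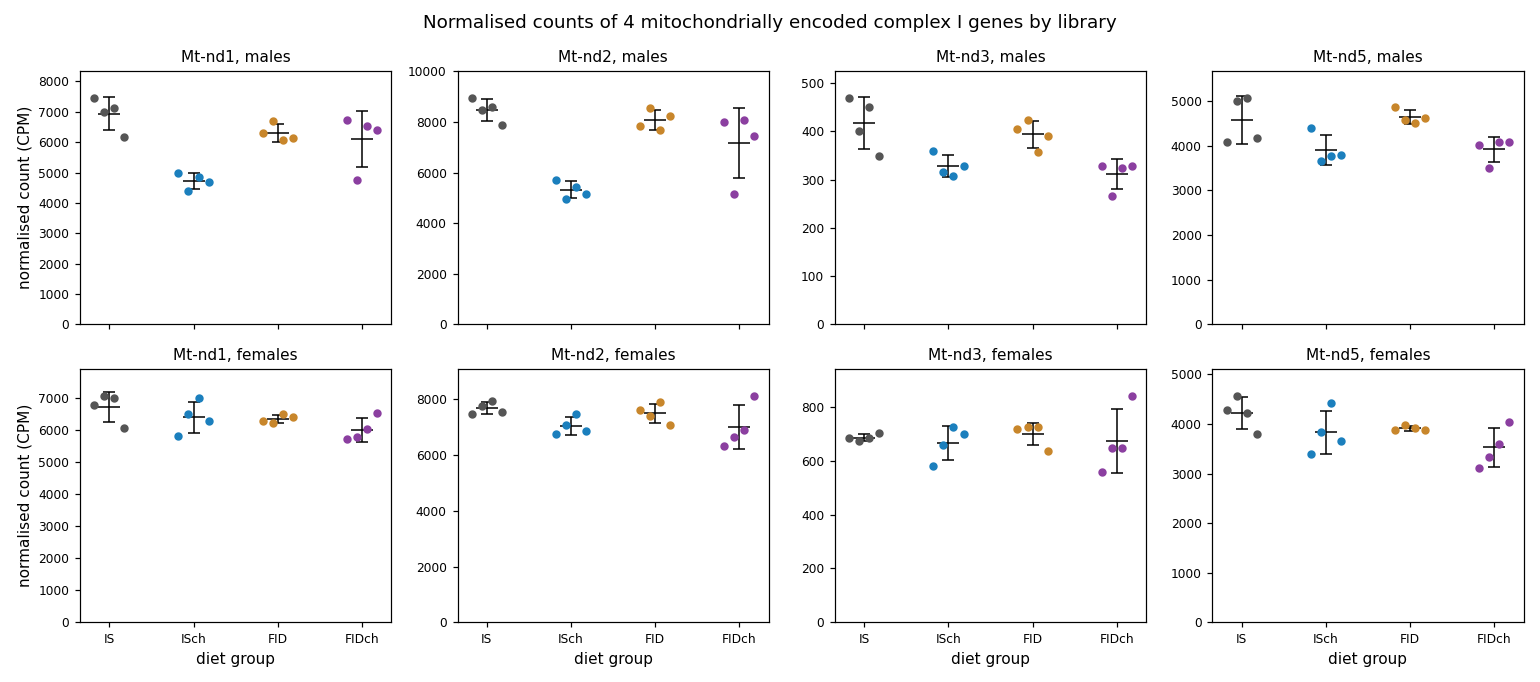
Normalised counts (CPM, linear axes from 0) of 4 mitochondrially encoded complex I genes by library, males above and females below. Points are libraries and bars the mean ± SD (n = 4). In males, Mt-nd1 and Mt-nd2 of the ISch libraries and of 1 FIDch library, at 4742 and 5155 CPM, lie below those of the other 11 libraries.

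The other 24 rows of the mitochondrial sequence hold no protein gene, and 22 of them had counts in males and 18 in females. Together they took 0.591% to 0.651% of counts in male ISch, 0.573% to 0.643% in IS, 0.532% to 0.591% in FID and 0.510% to 0.575% in FIDch. These ranges overlapped between ISch and IS and between FIDch and FID, unlike those of Mt-atp8.

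In females, Mt-atp8 was 338, 352, 276 and 249 CPM in IS, 335, 379, 378 and 364 CPM in ISch, 268, 249, 243 and 293 CPM in FID and 261, 263, 273 and 351 CPM in FIDch. It was the only member at the criterion in female ISch against IS, 1 of 6 beside 10.3% of 14466 genes, with a log2 fold change of 0.26 (standard error 0.096). That call was lost without IS replicate 3 or IS replicate 4, and the adjusted p was under 0.05 for 0 of the 6 in edgeR and DESeq2, beside 2.54% of all genes. The median log2 fold change of the 6 was 0.02.

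Female FID against IS had 0 of 6 at the criterion in edgeR and in DESeq2, with 0 at an unadjusted p under 0.05, beside 6.47% of 14632 genes, and 0 with an adjusted p under 0.05, beside 0.191%. Log2 fold changes ran from -0.21 for Mt-atp8 to -0.02 for Mt-co2. Female FIDch against IS likewise had 0 of 6 by both tools and 0 at an unadjusted p under 0.05, beside 8.98% of 14662 genes at the criterion and 0.907% with an adjusted p under 0.05, and its log2 fold changes ran from -0.09 to -0.04. Female FIDch against FID had 0 of 6 by both tools and 0 at an unadjusted p under 0.05, beside 12.7% of 14680 genes and 2.28%, with log2 fold changes from -0.07 for Mt-co2 to 0.12 for Mt-atp8. Without female FIDch replicate 4, Mt-co1 had an adjusted p under 0.05 there at a log2 fold change of -0.10, within the criterion's limits. For the difference between the choline effects in females the same counts were 0, beside 7.33% of 14975 genes and 0.00668%. Standard errors of the 6 genes in these female fits were 0.038 to 0.15, beside log2 fold changes of 0.40 for Mt-atp8 and -0.47 for Mt-co3 in male ISch.

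The other 5 genes overlapped between all female groups. In the order IS, ISch, FID and FIDch, Mt-co1 was 19360 to 23439 CPM, 19894 to 24011, 21124 to 21867 and 19833 to 23581. Mt-co3 was 8111 to 9301 CPM, 7996 to 9236, 8242 to 8628 and 7400.3 to 9593 in the same order. Mt-co2 was 6847 to 7530.1 CPM, 6193 to 7542, 6930 to 7544 and 6134 to 7866. In ATP synthase and complex III, Mt-atp6 was 7861 to 9558 CPM, 8232 to 9819, 8115 to 8629 and 7884 to 9655, and Mt-cyb was 7999.9 to 9126 CPM, 7722 to 9991, 8272 to 9135 and 7507 to 9948. Female FIDch replicate 4 was the highest of its group for all 6 genes, with 351 CPM of Mt-atp8 against 261 to 273 CPM in its other 3 libraries.

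Values of the sexes are set side by side without a test, since sex is joined with batch and the tables were normalised apart. Mt-atp8 was 477 to 758 CPM over the 16 male and 243 to 379 CPM over the 16 female libraries, which did not overlap. Mt-co1 was 15005 to 18780 CPM in males and 19360 to 24011 CPM in females, again apart. Mt-nd6, which is encoded on the other strand of the mitochondrial DNA than the rest, was 1057 to 1594 CPM in males and 21.4 to 40.2 CPM in females.

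Nuclear genes of the same complexes were examined from lists of complex III, complex IV and ATP synthase subunits, their assembly factors, and factors of mitochondrial transcription and RNA processing. Most were not at the criterion. In male ISch against IS, 1 of 12 nuclear complex IV rows was higher and 2 of 10 complex III rows were lower, beside 8.06% of all genes at the criterion in either direction, and the 15 ATP synthase rows had a median log2 fold change of 0.0018. Cox6b1 (ENSRNOG00000034161), a nuclear subunit of complex IV with a second row of the same symbol in the table, was 44.0 ± 2.16 CPM in ISch and 30.4 ± 2.78 CPM in IS (SD, n = 4). Its log2 fold change was 0.52 (edgeR, adjusted p = 0.0199), and it was 0.60 in FIDch against IS (adjusted p = 0.0379) and 0.60 in FIDch against FID (adjusted p = 0.00787). With 1 library left out at a time, Cox6b1 met the criterion in all 8 fits of each of these comparisons, and its adjusted p stayed under 0.05 in 2, 2 and 8 of them. For ISch against IS these were the fits without IS replicate 1 or 3, and for FIDch against IS those without IS replicate 1 or FIDch replicate 4. Without ISch replicates 1 and 2 together, the adjusted p of Cox6b1 in ISch against IS was not under 0.05. The second row of the symbol did not meet the criterion in these comparisons. In these males the row named here was thus higher in both choline groups, as Mt-atp8 was. Female Cox6b1, in the same row, was 17.1 ± 1.55 CPM in FIDch and 14.8 ± 0.394 CPM in FID, a log2 fold change of 0.21. It lost the criterion without FID replicate 1 or FIDch replicate 2 or 4, and its adjusted p was 0.206 in edgeR's test.

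Among ATP synthase subunits, Atp5me and Atp5f1e, which encode small subunits of the complex, were higher in male FIDch than FID. Atp5me was 66.6 ± 3.83 CPM against 47.9 ± 2.97 CPM (log2 fold change 0.47, adjusted p = 0.0106 from edgeR's test), and Atp5f1e was 75.4 ± 4.32 CPM against 58.3 ± 6.13 CPM (log2 fold change 0.36, adjusted p = 0.0473), both SD with n = 4. The adjusted p of Atp5me rose over 0.05 without FIDch replicate 1 or 4, and that of Atp5f1e without any single library but FID replicate 2. Atp5mg was at the criterion in female FIDch against IS, at 0.26, but not without FIDch replicate 4. Its adjusted p there was 0.231 in edgeR's test. The median over 15 ATP synthase rows was 0.11 in male FIDch against FID.

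Complex III subunits were mixed. Uqcrc2, a core subunit, was 299 ± 6.87 CPM in male FIDch, 354 ± 30.6 CPM in FID and 351 ± 34.6 CPM in IS (SD, n = 4), lower at log2 fold changes of -0.25 and -0.23. One row of Uqcrb was lower in male ISch, at -0.22, and in male FIDch against IS, at -0.31. The other Uqcrb row went the other way in male FIDch against FID, higher at the criterion at 0.21, with groups that overlapped. Its dependence on single libraries was not tested. Uqcr11 was higher in male FIDch than FID, at 0.22. Adjusted p-values of these Uqcrc2, Uqcrb and Uqcr11 calls were 0.0755 to 0.468 in edgeR's test. Uqcrc2 lost the criterion without IS replicate 1 and, against FID, without FID replicate 2, Uqcr11 without FID replicate 4 or FIDch replicate 1, and Uqcrb in ISch without IS replicate 1 or ISch replicate 1, 2 or 4. The Uqcrb call in ISch was also lost without ISch replicates 1 and 2 together. The median over 10 complex III rows was -0.07 in male FIDch against IS and 0.04 in female FIDch against IS.

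Assembly factors and factors of mitochondrial RNA gave few calls. Tfam packages mitochondrial DNA and takes part in its transcription. It was 22.8 ± 2.7 CPM in male FIDch, 29.2 ± 2.19 CPM in FID and 28.6 ± 1.14 CPM in IS (SD, n = 4). Its log2 fold changes were -0.34 against FID and -0.31 against IS (adjusted p = 0.098 and 0.417 from edgeR's test). Ppargc1a, a coactivator of mitochondrial genes, was higher in male FID than IS at 0.41 and lower in female FIDch, at -0.31 against FID and -0.27 against IS. In male FIDch against FID it was also lower at the criterion, at -0.27, with groups that overlapped. The dependence of that male FIDch call on single libraries or settings was not tested. Fastk, of a family of mitochondrial RNA-binding proteins, was lower in male FID than IS at -0.25, and Fastkd1 of the same family was lower in female ISch at -0.30. Hsd17b10, a subunit of the enzyme that cuts tRNA precursors, and Mterf2 were higher in female FIDch than FID, at 0.23 and 0.29. Adjusted p-values of all these calls were 0.0764 to 0.786 in edgeR's test. The criterion was lost by Ppargc1a in male FID without IS replicate 4 or FID replicate 3, by Fastk without FID replicate 4, by Mterf2 without FID replicate 2, and by Hsd17b10 and, against IS, female Ppargc1a without FIDch replicate 4. Of 31 such genes tested, 1 met the criterion in male ISch, 2 in male FID, 2 in male FIDch against IS and 4 in male FIDch against FID, beside 8.06%, 4.62%, 6.12% and 13% of all genes, so these counts are near the background.

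Among assembly factors, Cox14 was lower in male ISch at -0.28, Cox15 was higher in male FIDch at 0.36 against IS and 0.32 against FID, and Pet100 was lower in female ISch at -0.35 (adjusted p = 0.0239 from edgeR's test). With 1 library left out, the adjusted p of Pet100 stayed under 0.05 without IS replicate 2 or ISch replicate 1 or 2. Cox15 lost the criterion against IS without IS replicate 1 or 4 or FIDch replicate 1, 3 or 4, and against FID without FIDch replicate 1. Atpaf2 and Cox20 were higher in female FIDch than IS at 0.23 and 0.21, and both lost the criterion without FIDch replicate 4, Cox20 also without IS replicate 1, 2 or 4 or FIDch replicate 1. Coa6, at 0.596 ± 0.13 CPM in female FIDch and 1.17 ± 0.243 CPM in FID, had a log2 fold change of -0.96. Apart from Pet100, adjusted p-values of the assembly factors named were 0.0893 to 0.607 in edgeR's test.

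Nuclear genes most like the mean of the 6 were sought by Pearson's r over the 16 libraries of a sex. It was taken between a gene's log2 CPM and the mean log2 CPM of the 6, among genes with a mean log2 CPM of at least 3. In males this mean joins genes that ran in opposite directions in ISch, so it is not the pattern of each member. The libraries share depth and composition, and r is a description. Those of males with the highest values were Exoc2 (r = 0.83), Tmem119 (0.77), Acbd6 (0.77), Il27ra (0.76) and RT1-M6-2 (0.75), among 10528 genes. In females they were RGD1562136 (0.88), Ing2 (0.86), Laptm4a (0.86), Fkbp1a (0.83) and Ttc9 (0.83), among 10038. No gene had an r over 0.9 in either sex, and no gene was in both lists.

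Levels of cell type markers are given beside these results. In males the summed excitatory neuron markers were 5266 to 5666 CPM, 5278 to 5469, 5089 to 5378 and 5111 to 5854 for IS, ISch, FID and FIDch, and each of these ranges overlapped the others. Sums of 6 astrocyte markers were 3019 to 3623 CPM, 3227 to 3776, 3245 to 3533 and 3053 to 3445 in the same order. Sums of 5 oligodendrocyte markers were 7350 to 8540.5 CPM, 7315 to 7854, 6300 to 7574 and 7031 to 8438 CPM. Those of 5 interneuron, 5 microglia and 3 endothelial markers and of 4 hemoglobin and erythroid rows overlapped between all male groups too. Choroid plexus markers did not overlap in males, at 6.12 to 391.0 CPM in FID against 2.65 to 4.67 CPM in IS, 2.52 to 6.05 CPM in ISch and 2.67 to 4.76 CPM in FIDch, so they moved with both comparisons of male FID. In females they were 2.88 to 4.37 CPM in FIDch, below the 4.95 to 7.18 CPM of IS. The 5 female microglia markers summed to 149 to 153 CPM in FIDch, below 168 to 174 CPM in IS and 162 to 179 CPM in FID, where the 6 genes overlapped. No marker in these lists was at 0 in all libraries of a sex. The part of cell makeup in the differences of the 6 genes was not tested.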

How the data were processed

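For hippocampal RNA of 32 rats, libraries had been made with a TruSeq RNA kit and sequenced in paired ends. Per the labels and the study's methods, the authors used FastQC, Trimmomatic, HISAT2, Rnor_6.0 and featureCounts. The deposited values are raw read counts for each gene. Annotation version, strand setting and treatment of multiply aligned reads are not given in the sources used here.

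Pairs of groups (8 libraries) were fitted with edgeR 4.0.16 under R 4.3.3, using TMM, filterByExpr and the quasi-likelihood test, and the interaction over 16 libraries. The criterion was the study's, a log2 fold change beyond 0.2 in either direction at an unadjusted p below 0.05. Adjusted p-values are Benjamini-Hochberg over all genes tested. Standard errors were derived from the test, as the absolute log2 fold change divided by the square root of its quasi-likelihood F statistic. Fits were tested on simulated data. DESeq2 1.42.0 and other settings served as alternatives. Replicates are separate rats as labelled. In 48 replicate pairs, variance was 2.02 to 25.2 times that of counting noise (chi-square over genes), so no library was counted as a duplicate. The highest values were those of female FIDch replicate 4, at 22.4 to 25.2 with the others of its group, which had 5.35 to 6.87 among themselves. Female ISch replicate 1 had 11.0 to 14.3 with its group, beside 5.18 to 6.68 among the others. The members, the lists and the rule for naming genes were chosen with earlier results of these data known. Genes named are the 6, complex I genes at the criterion, at most 2 higher and 2 lower genes per nuclear list and comparison at the criterion without overlap, and the 5 most like the mean of the 6 per sex. The other Uqcrb row and Ppargc1a in male FIDch against FID are given outside this rule. No p-value is printed for the 6, and their calls under a p limit are part of the description. Of the female rats, litters are not given. No genome or sequence of the mitochondrial genes was used here, and levels are not compared between genes.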

Additional observations from a re-analysis of the deposited data

Results flagged for a closer look

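In 88 groups of 4 values, the 6 genes and 5 count ratios in each of 8 groups, 11 held a library whose gap to the nearest other exceeded Dixon's 95% limit for 4 values, and chance flags about 1 in 20 groups. Values of the same library are not independent of each other.

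Of these, 4 belonged to male FIDch replicate 2, the shallowest library and 1 of the 3 named in another form. It had 6213 CPM of Mt-co3 (other 3 libraries 8366 to 8495), 6699 CPM of Mt-atp6 (8199 to 8346), 634 CPM of Mt-atp8 (741 to 758) and a Mt-co1 to Mt-co3 ratio of 2.55 (1.80 to 1.91).

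The others were 17738 CPM of Mt-co1 in male IS replicate 1 (16091 to 16362), a Mt-co1 to Mt-co3 ratio of 1.75 in male FID replicate 1 (1.69 in its other libraries), 19360 CPM of Mt-co1 in female IS replicate 4 (22817 to 23439) and its Mt-atp6 to Mt-co3 ratio of 0.969 (1.03 in the others), 7722 CPM of Mt-cyb in female ISch replicate 1 (9660.0 to 9991), and 23581 CPM of Mt-co1 (19833 to 20337) and 351 CPM of Mt-atp8 (261 to 273) in female FIDch replicate 4. No pair of effects, of 36 looked at, had every library on opposite sides in the sexes or in FID and IS.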

How the results depend on the processing

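The median log2 fold change of the 6 genes stayed within 1 SD of replicates of its value under every alternative tried, in each of 10 comparisons. Members at the criterion changed by over 1.5 times as follows. With an adjusted p under 0.05 in place of the criterion, there were 3 in male ISch against IS, 1 in FIDch against IS, 1 in FIDch against FID, 0 in the male interaction and 0 in female ISch against IS. For male FIDch against FID the count was 1 under RLE size factors, library size alone, DESeq2, the 4 groups in one fit and without the 3 libraries of another name form, with Mt-atp8 left. Without these 3 libraries it was 4 in the male interaction. In female FID against IS it was 1, Mt-atp8, under library size alone and with all genes with at least 1 count. In male ISch against IS, Mt-cyb gained an adjusted p under 0.05 under DESeq2 and with all genes with at least 1 count. Sizes taken from nuclear-encoded rows moved no count of members by over 1.5 times.

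With 1 library left out at a time, the median and the number at the criterion ranged from -0.14 to -0.07 and 4 to 5 in male ISch against IS, -0.12 to -0.06 and 0 to 0 in FID against IS, -0.15 to -0.08 and 2 to 3 in FIDch against IS, -0.09 to -0.03 and 1 to 2 in FIDch against FID, and 0.13 to 0.23 and 2 to 4 in the interaction. In females they were -0.03 to 0.07 and 0 to 1 in ISch against IS, -0.10 to -0.02 and 0 to 1 in FID against IS, -0.15 to -0.03 and 0 to 0 in FIDch against IS, -0.09 to 0.04 and 0 to 0 in FIDch against FID, and -0.11 to 0.02 and 0 to 0 in the interaction. Among the complex I and nuclear genes named, every direction held under every alternative, and 57 of their refitted values no longer met the criterion. The cause was not tested.

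Replicate numbers are shared between groups in the labels. Of 24 same-numbered pairs of libraries, 6 in males and 8 in females had deviations from their group means that correlated over 0.1. The median correlation was -0.0106 in same-numbered male pairs and 0.0185 in the 72 other male pairs. In females these medians were -0.0341 and 0.0448. By the median, same-numbered libraries were thus not more alike than others, and pairing was not tested further. With the replicate block, members at the criterion numbered 5, 0, 3 and 2 in the male comparisons and 2 in the interaction, and 1, 0, 0 and 0 with 0 in females, the same counts as without it, and the median in male ISch against IS was -0.10. An adjusted p under 0.05 was kept with the block by Mt-co3 in male ISch against IS and lost there by Mt-atp6 and Mt-atp8, and Mt-atp8 lost it in male FIDch against IS and against FID. Of the complex I and nuclear genes named, Uqcrb in male ISch, Cox15 in male FIDch against IS and Cox20 in female FIDch against IS lost the criterion with the block, and Cox6b1, Atp5me, Atp5f1e, Mt-nd3 and Pet100 lost an adjusted p under 0.05.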
